A study of Mus musculus with 17 samples.

Results

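The genes described here are 8 that serve the synthesis of progesterone in ovarian follicles: Scarb1, Tspo, Star, Cyp11a1, Fdx1, Fdxr, Por and Hsd3b1. They were chosen by gene symbol, as 8 of the 25198 rows of a count table, and all 8 passed the filter on low counts that left 9603 genes for testing. In follicles exposed to the EGF receptor kinase inhibitor Tyrphostin-AG1478, Star was lower than in Control follicles, Hsd3b1 and Fdxr were higher, and the other 5 genes did not pass the test. The log2 fold changes were -0.99 ± 0.26 for Star, 0.74 ± 0.18 for Hsd3b1 and 1.30 ± 0.25 for Fdxr (SE, 17 libraries), which on the linear scale are 0.502-fold, 1.68-fold and 2.47-fold. Cyp11a1 was higher in the Control libraries of the second batch than in those of the first.

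Progesterone is made from cholesterol. Granulosa cells take up cholesterol esters from lipoproteins, and the rate-limiting step is the transfer of cholesterol to the inner mitochondrial membrane, where a cytochrome P450 cuts its side chain to give pregnenolone with electrons passed along a short mitochondrial chain. A dehydrogenase then converts pregnenolone to progesterone. The surge of luteinizing hormone, for which hCG stands in during culture, turns granulosa cells from estrogen synthesis to progesterone synthesis, and EGF-like ligands acting on the EGF receptor relay a part of this signal within the follicle.

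The samples were antral follicles of CD1 mice aged 16 days that had been cultured for 8 days in the encapsulated follicle growth system eIVFG, with triplicate follicles in a sample. The Tyrphostin group (n = 6, with 3 libraries in each of 2 batches) received 10 µM Tyrphostin-AG1478 in DMSO together with hCG for 4 h. The Control group had 11 libraries (6 in batch 1 and 5 in batch 2). The treatment text is identical for all samples, so whether Control follicles also received hCG and DMSO is not stated, and neither is what a batch stands for. No label says that libraries came from separate animals or cultures, so the p-values measure the spread between libraries, which may in part be technical. Library names divide the Control libraries into 5 sets (Control 1 to 3 are set 1, and Control 4 to 6 are set 2).

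Library totals ran from 1820545 to 8291024 counts. Values are given as CPM, the usual scaled count in which library totals, adjusted by TMM, are made equal. In these bulk samples fewer cells of a type and less RNA per cell cannot be told apart. Inha, an inhibin subunit of granulosa cells, was at 33998 to 52659 CPM in every library. Of the other granulosa markers, Amh was at 0 in 12 libraries with at most 4 counts, and Foxl2 was at 0 in 3 libraries with at most 30 counts. Among theca markers, Insl3 was at 0 in 5 libraries with at most 16 counts. Summed theca and stroma markers (10 genes) lay between 269 and 2143 CPM in Control and between 278 and 3061 CPM in Tyrphostin libraries, and the highest value was in Tyrphostin 5. The sums of 8 granulosa markers were 39035 to 52827 CPM in Control and 35125 to 51891 CPM in Tyrphostin libraries. Of the granulosa markers 6 were tested and 4 were higher in Tyrphostin libraries (Fshr, Cyp19a1, Hsd17b1 and Nr5a2), while Inha differed by -0.05 ± 0.15. Their part in the results below was not tested. Control 6 had the lowest total and Control 7 the lowest share of mitochondrially encoded counts. Without Control 6, Control 7 and Tyrphostin 5, the log2 fold changes of Star, Hsd3b1 and Fdxr were -1.13, 0.90 and 1.53, and the same 3 genes passed the test. These libraries were chosen after seeing the data. Control 6 was the highest Control library for Hsd3b1 and Control 7 for Fdxr. Tyrphostin 5 was the lowest Tyrphostin library for both genes and the highest for Star. Leaving these libraries out favours larger Hsd3b1 and Fdxr differences, so the values do not test their stability.

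The main comparison asked which of these genes differed between inhibitor-exposed follicles and Control, in a model that also held the batch. By edgeR's quasi-likelihood test with Benjamini-Hochberg adjustment over all 9603 genes, 3 of the 8 genes passed at an adjusted p of 0.05 (2 of them higher and 1 lower), against 10.6% of all genes tested (4.35% higher and 6.25% lower). The balance of all calls depended on scaling, with 418 higher and 600 lower on the TMM scale but 715 higher and 396 lower on total counts, which placed the median over all genes at 0.15 rather than 0. On total counts the 3 genes held their directions and calls, at -0.82 for Star, 0.87 for Hsd3b1 and 1.42 for Fdxr.

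**Figure D1:**
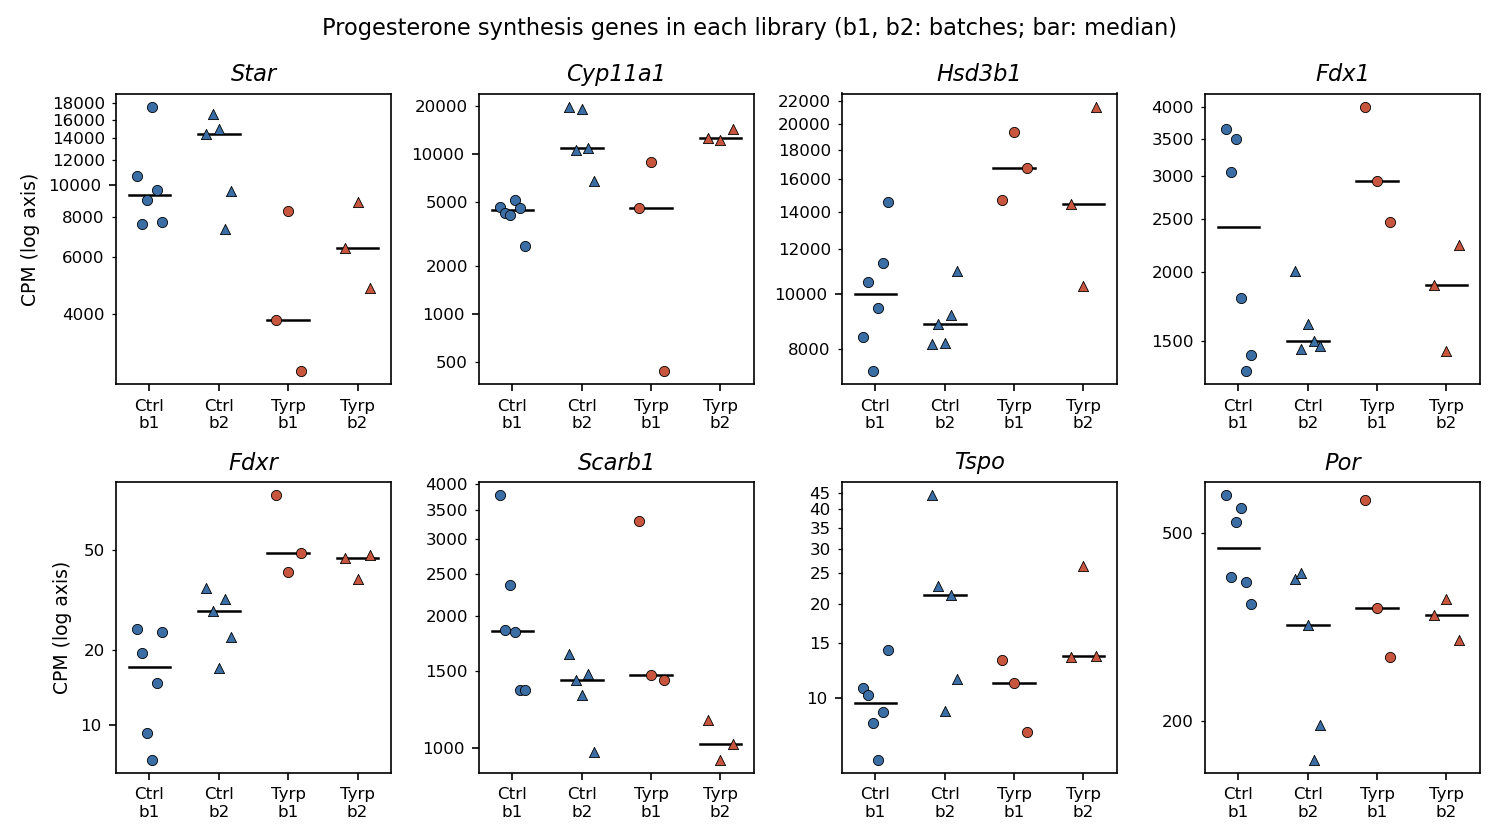
Level of each of the 8 genes in CPM (log axis) in every library, with Control libraries in blue, Tyrphostin libraries in red, batch 1 as circles, batch 2 as triangles and the median of each group in each batch as a bar. All 6 Tyrphostin libraries lie above every Control library for Fdxr, and 4 of 6 lie below every Control library for Star.

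The first steps concern the supply of cholesterol. Scarb1 encodes the scavenger receptor that takes up cholesterol esters from high-density lipoprotein (gene at chr5:125277087-125341094, GRCm38). It was at 981.5, 1481 and 3775 CPM (lowest, median and highest) in Control libraries. In Tyrphostin libraries 1 to 6 it was at 3292, 1469, 1430, 1160, 943 and 1024 CPM. Control 1 and Tyrphostin 1 were the high libraries, and the groups overlapped. The log2 fold change was -0.20 ± 0.23 (SE; edgeR adjusted p = 0.661), with an approximate 95% interval from -0.65 to 0.25. Without Tyrphostin 1 it was -0.46 (edgeR adjusted p = 0.246), which remained short of the threshold.

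Tspo encodes a cholesterol-binding protein of the outer mitochondrial membrane (chr15:83563592-83574203). Its level was low, from 6.38 to 44.4 CPM in Control and from 7.80 to 26.4 CPM in Tyrphostin libraries, with between 21 and 203 counts behind each value. No Tyrphostin library lay outside the range of Control libraries. The log2 fold change was -0.08 ± 0.27 (SE; edgeR adjusted p = 0.905; 95% interval -0.61 to 0.46), and its sign varied with the processing. Of its exon length, 5.04% overlaps Mcat on the opposite strand, and reads from that stretch cannot be assigned without strand.

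Star encodes the steroidogenic acute regulatory protein, which moves cholesterol into mitochondria (chr8:25806555-25815982). Control libraries ranged from 7614 to 17540 CPM in batch 1 (median 9357) and from 7301 to 16597 CPM in batch 2 (median 14480). Tyrphostin 1, 2 and 3 had 3835, 8303 and 2657 CPM, and Tyrphostin 4, 5 and 6 had 6410, 8866 and 4822 CPM. Tyrphostin 2 and 5 fell within the Control range, and the other 4 libraries lay below every Control library. The Control libraries averaged 11388 CPM ± 3795 (SD, n = 11) and the Tyrphostin libraries 5815 CPM ± 2479 (SD, n = 6). The difference had an edgeR adjusted p of 0.0143. In the fits that left out a library each in turn, the log2 fold change ran from -1.23 to -0.84 and the edgeR adjusted p reached 0.0486, so the call held in 17 of 17 such fits. The call was lost at a threshold of 0.01 and in a fit with same-numbered libraries as blocks (edgeR adjusted p = 0.0987). The log2 fold change was -1.07 ± 0.36 within batch 1 (edgeR adjusted p = 0.083) and -0.91 ± 0.34 within batch 2 (edgeR adjusted p = 0.328), so that neither batch alone passed the threshold.

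Cyp11a1 encodes the side-chain cleavage P450 that turns cholesterol into pregnenolone (chr9:58006411-58027023). Control libraries had 2648, 4449 and 5147 CPM (lowest, median, highest) in batch 1 and 6817, 10879 and 19843 CPM in batch 2. Tyrphostin 1, 2 and 3 had 4591, 8920 and 439 CPM, and Tyrphostin 4, 5 and 6 had 12673, 12222 and 14358 CPM. Tyrphostin 3 stood below every other library, while the 3 Tyrphostin libraries of batch 2 were inside the Control range of their batch. Its 439 CPM rested on 2252 counts and was therefore not at the counting floor. The log2 fold change was 0.05 ± 0.37 (SE; edgeR adjusted p = 0.959; 95% interval -0.67 to 0.76). Without Tyrphostin 3 it was 0.30 (edgeR adjusted p = 0.512), and without Tyrphostin 2 it was -0.34 (edgeR adjusted p = 0.680).

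In Tyrphostin 3 the other genes did not move with Cyp11a1 as a block. Star was also at its lowest of all libraries there (2657 CPM). Hsd3b1 (16762 CPM) and Fdxr (49.0 CPM) were above every Control library in the same sample. Cyp17a1, the theca enzyme that makes androgen precursors, was at 47.0 CPM in Tyrphostin 3 and at 90.8 to 397 CPM in the other Tyrphostin libraries. It was lower still in Control 5, 6 and 2 of the same batch (15.0, 30.7 and 36.5 CPM), where Cyp11a1 was at 4619, 2648 and 4280 CPM. The part of theca content in these values was not tested.

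The electrons for side-chain cleavage pass from NADPH through adrenodoxin reductase, encoded by Fdxr, to adrenodoxin, encoded by Fdx1. Fdxr (chr11:115268024-115277050) had 7.25, 17.01 and 24.3 CPM (lowest, median, highest) in Control batch 1 and 16.9, 28.6 and 35.2 CPM in Control batch 2. Tyrphostin libraries 1 to 6 had 83.2, 41.0, 49.0, 46.5, 38.3 and 47.9 CPM. All 6 lay above every Control library, an arrangement found in 0.51% of the genes tested (in 1% all 6 lay below). The groups were also separate in batch 2 alone, as in 4.22% of genes tested (5.08% with the Tyrphostin libraries below). Means were 21.2 CPM ± 8.85 (SD, n = 11) and 51.0 CPM ± 16.3 (SD, n = 6), with an edgeR adjusted p of 0.00147. Counts behind these values ran from 25 to 580. Tyrphostin 1 was the highest library. Leaving it out gave 1.05 (edgeR adjusted p = 0.0064).

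The Fdxr difference was 1.83 ± 0.33 in batch 1 (SE; edgeR adjusted p = 0.00254) and 0.71 ± 0.25 in batch 2 (SE; edgeR adjusted p = 0.287). The interaction of treatment with batch was -1.12 ± 0.46 with an unadjusted p of 0.0237 and an adjusted p of 1.00 in edgeR, so a difference between batches was not shown. Control libraries of batch 2 were higher than those of batch 1 by 0.77 ± 0.30 (SE; edgeR adjusted p = 0.0968), whereas Tyrphostin medians were 49.0 and 46.5 CPM.

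Fdx1 (chr9:51943306-51963556) was much more abundant than Fdxr. It had 3042 to 3651 CPM in Control set 1 and 1323 to 2015 CPM in the other 8 Control libraries. Tyrphostin libraries 1 to 6 had 4008, 2939, 2467, 1899, 1438 and 2246 CPM. The 3 libraries of Control set 1 and Tyrphostin 1 and 2 were the high ones, and the groups overlapped. The log2 fold change was 0.29 ± 0.22 (SE; edgeR adjusted p = 0.465; 95% interval -0.14 to 0.71), and 0.18 without Tyrphostin 1 (edgeR adjusted p = 0.728). What distinguishes the Control sets is not stated.

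Por encodes the cytochrome P450 oxidoreductase of the endoplasmic reticulum, which supplies electrons to microsomal P450s such as aromatase rather than to Cyp11a1 (chr5:135670033-135735326). It ran from 166 to 601 CPM in Control and from 274 to 588 CPM in Tyrphostin libraries. Control 10 and 11, which form 1 set, were lowest at 166 and 196 CPM. The log2 fold change was -0.04 ± 0.21 (SE; edgeR adjusted p = 0.936; 95% interval -0.46 to 0.38).

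Hsd3b1 encodes the dehydrogenase that converts pregnenolone to progesterone (chr3:98852194-98859794). Control libraries had 7300, 9981 and 14549 CPM (lowest, median, highest) in batch 1 and 8145, 8842 and 10987 CPM in batch 2. Tyrphostin 1, 2 and 3 had 14658, 19408 and 16762 CPM, and Tyrphostin 4, 5 and 6 had 14451, 10343 and 21496 CPM. In batch 1 all 3 Tyrphostin libraries exceeded every Control library, as in 5% of the genes tested (6.3% had all 3 below). In batch 2 Tyrphostin 5 lay within the Control range. Control libraries averaged 9717 CPM ± 2046 (SD, n = 11) and Tyrphostin libraries 16186 CPM ± 3960 (SD, n = 6), with an edgeR adjusted p of 0.00821.

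The Hsd3b1 difference was 0.73 ± 0.25 (SE; edgeR adjusted p = 0.091) in batch 1 and 0.77 ± 0.28 (SE; edgeR adjusted p = 0.309) in batch 2, with an interaction of 0.04 ± 0.38 (95% interval -0.70 to 0.78). Neither batch passed the threshold alone. Leaving out Tyrphostin 6 gave the smallest value, 0.62 (edgeR adjusted p = 0.0429). Near-identical copies could divert reads of this gene, since 90 of the 1806 stretches of 50 bases in its longest transcript (4.98%) also occur in transcripts of other genes. Of the genes that share them, Hsd3b2, Hsd3b3, Hsd3b5 and Hsd3b6 had at most 12 counts in any library, against at least 18834 for Hsd3b1. Gm12431, which shares 50 of the 90, and Gm12427, which shares 18, do not occur under these symbols among the counted genes. Their counts could therefore not be examined. The other 7 genes shared no such stretch.

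**Figure D2:**
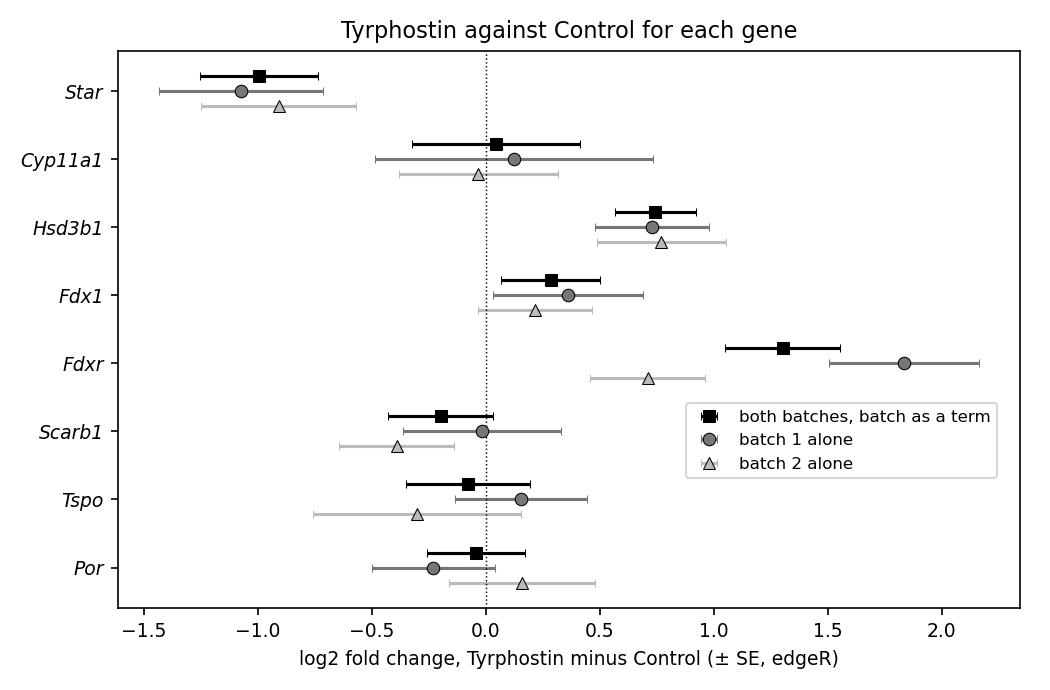
Log2 fold change of Tyrphostin minus Control with its SE from edgeR for each gene, over both batches with batch as a term (squares) and within batch 1 (circles) and batch 2 (triangles). Star lies below 0 and Hsd3b1 and Fdxr lie above 0 in each batch, while Cyp11a1, Tspo and Por change sign between batches.

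The promoters of the genes that rose, Hsd3b1 and Fdxr, are printed with that of Fdx1, the partner of Fdxr that did not pass the test. RefSeq promoter sequences (GRCm38.p6) were matched for 5 of the 8 genes, and none was matched for Star, Scarb1 and Tspo. The windows are chr3:98859795-98860044 (minus strand) for Hsd3b1, chr11:115277051-115277219 (minus strand) for Fdxr and chr9:51963603-51963852 (minus strand) for Fdx1. Each reads 5′ to 3′ towards the start site, without the bases next to the Fdxr start that lie in a GENCODE exon, and capitals mark the letters GATAA, or TTATC where they lie on the opposite strand.
Hsd3b1: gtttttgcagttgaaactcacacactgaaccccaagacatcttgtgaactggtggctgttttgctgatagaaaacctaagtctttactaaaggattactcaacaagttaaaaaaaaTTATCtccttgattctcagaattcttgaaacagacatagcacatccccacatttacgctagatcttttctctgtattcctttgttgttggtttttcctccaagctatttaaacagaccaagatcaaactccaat
Fdxr: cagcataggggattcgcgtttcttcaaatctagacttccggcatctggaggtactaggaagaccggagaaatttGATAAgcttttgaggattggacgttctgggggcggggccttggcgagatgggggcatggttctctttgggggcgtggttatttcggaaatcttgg
Fdx1: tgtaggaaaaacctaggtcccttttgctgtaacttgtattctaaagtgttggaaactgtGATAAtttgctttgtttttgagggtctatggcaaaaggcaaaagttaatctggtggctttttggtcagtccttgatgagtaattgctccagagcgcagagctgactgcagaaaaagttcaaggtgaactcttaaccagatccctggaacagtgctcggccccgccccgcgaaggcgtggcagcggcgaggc
In the 250 bases before each RefSeq start, 5 motifs were searched on both strands, namely GATAA (bound by Gata4 and Gata6), CAAGGNCA (bound by Nr5a1 and Nr5a2), TGACG (part of the cyclic AMP response element), TTGCNNAA (bound by C/EBP factors) and TATAAA (the core promoter box). The capitals of the 3 windows did not overlap another of these motifs. GATAA was found in the windows of Hsd3b1 (on the opposite strand, 134 to 130 bases before the start), Fdxr (176 to 172 bases before) and Fdx1 (191 to 187 bases before), and in 22.6% of all 32851 windows. It thus occurred both in the genes that rose and in Fdx1. CAAGGNCA (5.53% of windows) and TATAAA (12.4%) were in none of the matched windows. Cyp11a1 has 2 RefSeq starts, of which the upstream start had a TGACG match (17.8% of windows) and the other a TTGCNNAA match (9.56%). The upstream window, chr9:57997774-57998023, lies before the GENCODE interval of the gene given above. All 250 bases before the other start lie in a GENCODE exon of Cyp11a1. Por had no match. These are matches of letters only.

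Ratios of counts within a library do not depend on scaling, and were chosen after the values had been seen. The Hsd3b1 count per Star count was 0.533 to 1.89 in Control (median 0.807) and 1.17 to 6.31 in Tyrphostin libraries (median 3.08). The lowest Tyrphostin value, in Tyrphostin 5, was within the Control range, and the other 5 were above it. The Star count per Cyp11a1 count was 1.78 to 3.41 in Control batch 1, against 0.835, 0.931 and 6.05 in the Tyrphostin libraries of that batch, and the highest value belonged to Tyrphostin 3. In batch 2 it was 0.671 to 1.55 in Control and 0.336 to 0.725 in Tyrphostin libraries. The Fdxr count per Fdx1 count was 0.00265 to 0.0166 in Control and 0.0140 to 0.0208 in Tyrphostin libraries of batch 1, and 0.0105 to 0.0214 and 0.0213 to 0.0266 in those of batch 2, so that the ranges overlapped in each batch, in batch 2 only at their edge.

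**Figure D3:**
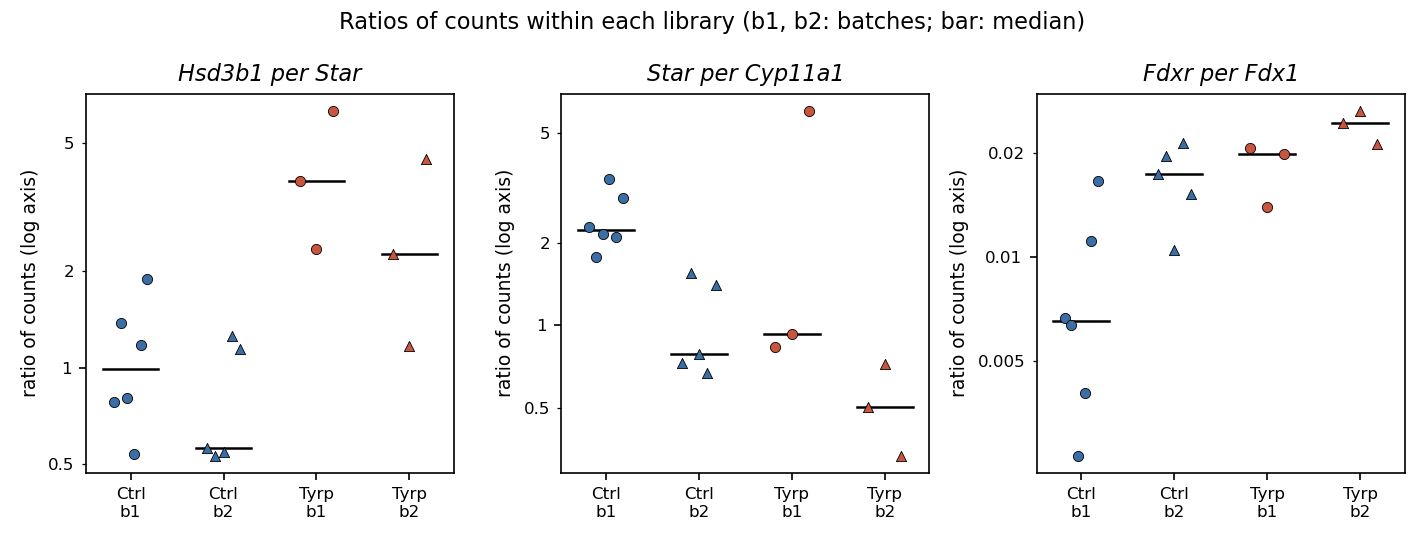
Ratio of the counts of a pair of genes within each library (log axis), with Control in blue, Tyrphostin in red, batch 1 as circles, batch 2 as triangles and medians as bars. The Hsd3b1 per Star ratio of 5 of 6 Tyrphostin libraries exceeds the highest Control value of 1.89, and Tyrphostin 3 has the highest Star per Cyp11a1 ratio at 6.05.

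Levels were compared between genes as CPM per kilobase of exon length, with the exons of all transcripts merged. For Cyp11a1 this length is 4804 bases, while its longest transcript holds only 2071 stretches of 50 bases. For Star the values are 4113 and 3997. The order of Star and Cyp11a1 in Control therefore depends on the length used. In Control libraries Hsd3b1 was highest at 5238 CPM per kb ± 1103 (SD, n = 11), ahead of Star at 2769 ± 923 and Cyp11a1 at 1758 ± 1258. Fdx1 (667 ± 285), Scarb1 (208 ± 89.3) and Por (98.0 ± 34.1) followed. Tspo (14.5 ± 10.4) and Fdxr (7.56 ± 3.16) were lowest. The library ranges of every neighbouring pair in this order overlapped. In Tyrphostin libraries Hsd3b1 was at 8726 ± 2135 CPM per kb (SD, n = 6) and did not overlap the next gene. Within the 5 Control libraries of batch 2 it did not overlap the next gene either. Over all 6 Tyrphostin libraries Cyp11a1 (1846 ± 1122) preceded Star (1414 ± 603), and Fdxr (18.2 ± 5.82) preceded Tspo (13.6 ± 6.03). Ranges overlapped in either pair. Neither order held in both batches. In Tyrphostin batch 1 Star preceded Cyp11a1, and in Tyrphostin batch 2 Tspo preceded Fdxr, again with overlapping ranges. Cyp11a1 preceded Star without overlap in Tyrphostin batch 2, as did Fdxr Tspo in Tyrphostin batch 1.

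Within single batches the calls were few. In batch 1, 1 of the 8 genes (Fdxr) passed, against 6.73% of genes tested (2.94% higher and 3.79% lower). That count was 3 in DESeq2, which added Star and Hsd3b1, 2 without Control 6 (adding Hsd3b1) and 2 without Tyrphostin 2 (adding Star). In batch 2, 0 of the 8 genes passed in edgeR, DESeq2 and limma-voom, against 0.621% of genes tested in edgeR (0.193% higher and 0.427% lower). At an unadjusted edgeR p under 0.05 there were 3 (Star, Hsd3b1 and Fdxr), against 1047 of all 9830 genes tested. The interaction gave 0 of the 8 genes in edgeR, DESeq2 and limma-voom, against 0% of genes tested in edgeR. At an unadjusted edgeR p under 0.05 it gave 1 (Fdxr), against 342 of all 9603 genes tested.

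A further comparison asked how the genes varied between the batches in Control libraries. Cyp11a1 was higher in batch 2 by 1.67 ± 0.27 (SE; edgeR adjusted p = 0.00105), and all 5 libraries of batch 2 exceeded all 6 of batch 1, as in 3.98% of the genes tested (4.78% lay wholly below). Tspo was higher by 1.19 ± 0.34 (SE; edgeR adjusted p = 0.0277). These were 2 of the 8 genes, both higher, against 14% of the 6680 genes tested (7.26% higher and 6.77% lower). With Control libraries summed by set neither passed (edgeR adjusted p = 0.0932 and 0.276), and Tspo also lost its call without Control 7 (0.83, edgeR adjusted p = 0.0654) and without each of Control 2, 3, 4, 5, 8 and 10. Star differed by 0.30 ± 0.27 and Hsd3b1 by -0.15 ± 0.22, which did not pass. Summed theca and stroma markers ranged from 439 to 2143 CPM in Control batch 2 and from 269 to 765 CPM in Control batch 1. Immune markers (6 genes) ranged from 54.2 to 463 CPM and from 17.4 to 61.2 CPM, and oocyte markers (9 genes) from 33.4 to 184 CPM and from 25.9 to 76.6 CPM. Endothelial markers (5 genes) went the other way, with 8.54 to 21.8 CPM in batch 2 (median 16.1) and 11.3 to 88.7 CPM in batch 1 (median 35.5). The part of these cells in the Cyp11a1 and Tspo differences was not tested.

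The genes with the most similar profiles were sought among 6096 other genes, by the root mean square difference of centred log2 CPM over the 17 libraries. For Star, Cyp11a1, Hsd3b1, Fdxr and Por no gene came closer than 0.5 times the SD of the gene's own profile. Me1 (0.25) and Ptbp1 (0.26) came closest to Fdx1, whose SD was 0.54. Rps3 (0.24), Oaz2 (0.25) and Eef1b2 (0.25) came closest to Scarb1 (SD 0.56), and Vps28 (0.30), Slc44a2 (0.32) and Pigt (0.32) to Tspo (SD 0.69). None of these 8 genes passed the test between Tyrphostin and Control.

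The wider pathway was examined with 4 lists of 60 genes, of which 46 were tested. A total of 10 were higher and 5 lower, with a median log2 fold change of 0.25. Among all 9603 genes tested 418 were higher and 600 lower, with a median of 0. The lists were chosen with earlier results of these data known, so the 2 sets of counts do not test for an excess. Fshr, Cyp19a1, Hsd17b1 and Nr5a2 are also the 4 granulosa markers that passed. Of the 15 genes of cholesterol supply and mitochondrial import, 0 passed in edgeR, DESeq2 and limma-voom, and their median was 0.07. With total-count scaling 1 of them was higher. At an unadjusted edgeR p under 0.05 there was 1 of the 15, against 2279 of all 9603 genes tested. The gene with the low unadjusted p was Npc1, which exports cholesterol from lysosomes, at 0.42 ± 0.15 (SE; edgeR adjusted p = 0.0892). Soat1, which esterifies cholesterol for storage, was at 5261 CPM ± 2887 (SD, n = 11) and 4693 CPM ± 2333 (SD, n = 6). Plin2, which coats lipid droplets, differed by -0.83 ± 0.43 on the log2 scale (SE; edgeR adjusted p = 0.253).

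Among 8 electron transfer partners, 5 were tested, with 0 higher and 1 lower and a median of 0.33 (3 higher and 1 lower with total-count scaling). The lower gene was Cyb5r3, the reductase of cytochrome b5, which averaged 967 CPM ± 191 (SD, n = 11) across Control and 532 CPM ± 134 (SD, n = 6) across Tyrphostin libraries, or -0.90 ± 0.16 on the log2 scale (SE; edgeR adjusted p = 0.000631). In 5 of 6 Tyrphostin libraries it was below every Control library. Cyb5a, cytochrome b5 itself, had 0.36 ± 0.20 (SE; edgeR adjusted p = 0.288).

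Of 14 other steroid enzymes 7 were tested, with 2 higher (against 4.35% of all genes tested), 1 lower (against 6.25%) and a median of 0.27. The higher genes were those of estrogen synthesis, Cyp19a1 (2.35 ± 0.22) and Hsd17b1 (2.64 ± 0.35). The lower gene was Akr1c18, whose product inactivates progesterone, at -2.27 ± 0.69 (SE; edgeR adjusted p = 0.0421). Akr1c18 was scarce, with 0 to 10 counts in Control batch 1, 26 to 241 in Control batch 2, 0, 0 and 2 in Tyrphostin 1 to 3 and 14, 37 and 0 in Tyrphostin 4 to 6. Its call was lost when any of Control 1, 2, 3, 7 or 8 or Tyrphostin 1, 2, 3, 4 or 6 was omitted, with the edgeR adjusted p reaching 0.106. It was also lost in 6 of 13 alternatives, total-count scaling, no filter, no batch term and sets summed among them, where the adjusted p reached 0.289.

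Of 23 regulators of steroidogenic genes 19 were tested, with 8 higher (against 4.35% of all genes tested), 3 lower (against 6.25%) and a median of 0.56. Like the other lists, this one was chosen with earlier results of these data known. Nr5a2 (2.18 ± 0.16) and Gata4 (2.32 ± 0.48), transcription factors that bind promoters of steroid enzymes, were higher, whereas Nr5a1, a relative of Nr5a2, was at 52.8 CPM ± 8.48 (SD, n = 11) and 48.7 CPM ± 9.84 (SD, n = 6). With Control libraries summed by set, 4 regulators in place of 8 were higher, since Gata4 (edgeR adjusted p = 0.146), Lhcgr, Fshr and Akap1 lost their calls. Nr4a1, a nuclear receptor induced by cyclic AMP, rose by 0.84 ± 0.22 (SE; edgeR adjusted p = 0.0159), and Lhcgr, the receptor for hCG, by 1.02 ± 0.24 (SE; edgeR adjusted p = 0.00765). Fshr, Foxo1, Prkar2b and Akap1, the last an anchor of protein kinase A at mitochondria, were the other higher genes. Fshr lost its call when Control 1, 3 or 10 or Tyrphostin 1, 5 or 6 was omitted, and Akap1 when Tyrphostin 3 or 6 was. Both also lost it without the batch term, and Akap1 in limma-voom and with no filter, so that Fshr passed in 9 and Akap1 in 7 of 13 alternatives. The lower genes were Runx1 (-1.54 ± 0.25), Runx2 (-2.17 ± 0.32) and Zfp36l1, an RNA-binding protein that promotes decay of messenger RNAs, Star among them (-1.12 ± 0.21; edgeR adjusted p = 0.00112). Nr4a1, Lhcgr and Zfp36l1 lost their calls without the batch term, and over the alternatives their adjusted p reached 0.0519, 0.0596 and 0.111.

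**Figure D4:**
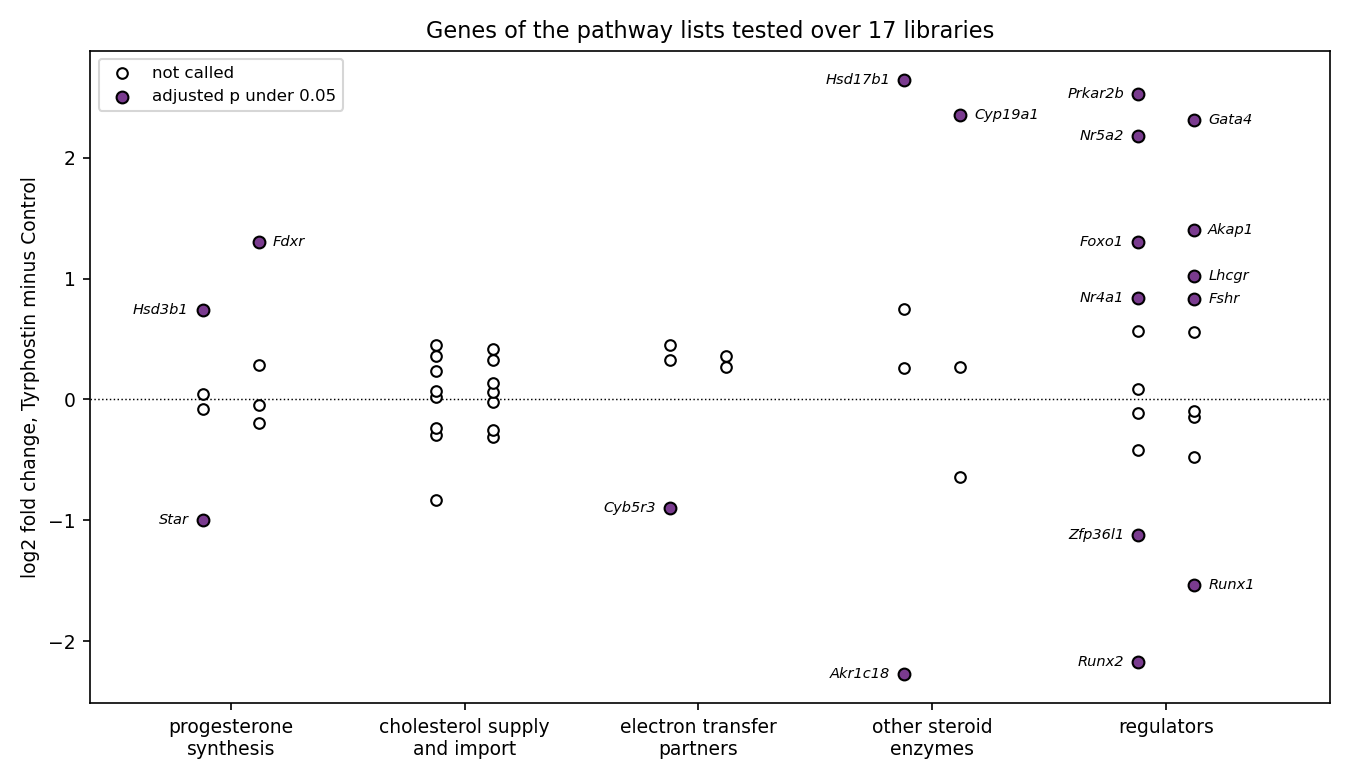
Log2 fold change of Tyrphostin minus Control for every tested gene of the 8 progesterone synthesis genes and of the 4 pathway lists, with filled points for an edgeR adjusted p under 0.05. The regulators hold 11 of the 15 called genes outside the 8, and none is among cholesterol supply and import. The lists were chosen with earlier results of these data known.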

How the data were processed

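RNA was purified on SPRI beads and sequenced from Smart-Seq2 libraries, which cover whole transcripts and carry no molecular tags, per the labels' protocols. The authors deposited raw counts per gene symbol. The submitters' processing notes name STAR, HTSeq and GRCm38, while versions, annotation and strandedness are not given in the sources used here. Every column was matched to a sample by the name that its label gives, with 0 columns left over. PCR copies are counted as reads, so depth overstates the number of molecules.

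The tests were run in edgeR 4.0.16 under R 4.3.3 (genes kept by filterByExpr on treatment, TMM, robust quasi-likelihood fit, F test, Benjamini-Hochberg over all genes tested, threshold 0.05). The SE is the log2 fold change divided by the square root of F, and intervals are 1.96 SE on either side. Fits used all 17 libraries with batch, each batch alone, the interaction, and the 11 Control libraries. The code was tested on simulated counts. Libraries that share a group and a batch form 31 pairs, and none was a copy of another (ratios of chi-square to its degrees of freedom were 11.8 to 84.1).

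Alternatives were DESeq2 1.42.0, limma-voom 3.58.1, scaling by total count, RLE or upper quartile, other filters, no batch term, summed Control sets, a replicate block, omission of mitochondrially encoded genes, a threshold of 0.01 and omission of each library. Exon lengths came from GENCODE M21. The 8 genes, the gene lists and the rule for the genes named (list genes that passed, others needed to describe a list, and up to 3 profiles per gene that differ by under 0.5 SD) were chosen with earlier results of these data known.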

Additional observations from a re-analysis of the deposited data

Results flagged for a closer look

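The 8 genes were searched for a library far from the rest of its group in Control batch 1 (6 libraries), Control batch 2 (5) and Tyrphostin (6), on the CPM and the log2 CPM scale. Of these 48 groups 11 had such a library, where chance gives about 2.4, since about 1 in 20 groups is picked out by chance. The same values were counted on both scales and the genes shared libraries, so the 48 groups were not independent. The Tyrphostin group joins libraries of both batches.

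Tyrphostin 1 was far above the other Tyrphostin libraries for 3 genes on both scales. It had 83.2 CPM of Fdxr (others 38.3 to 49.0), 3292 CPM of Scarb1 (others 943 to 1469) and 588 CPM of Por (others 274 to 363). Tyrphostin 3 had 439 CPM of Cyp11a1 (others 4591 to 14358), on the log2 scale. Tyrphostin 5 had 26.4 CPM of Tspo (others 7.80 to 13.6), on the CPM scale. This library also had the highest sums of theca and stroma markers (3061 CPM) and of immune markers (860 CPM). The part of these cells in its Tspo value was not tested. Among Control libraries, Control 4 had 17540 CPM of Star (others of batch 1 7614 to 10708), and leaving it out gave Star -0.89. Control 6 had 2648 CPM of Cyp11a1 (others of batch 1 4195 to 5147). Control 7 had 2015 CPM of Fdx1 (others of batch 2 1451 to 1614).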

How the results depend on the processing

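Hsd3b1 and Fdxr kept their direction and their call in 13 of 13 alternatives, with log2 fold changes of 0.73 to 0.96 and 1.26 to 1.72, and in all 17 fits with 1 library omitted. Star did so in 11 of 13, from -1.13 to -0.82, losing the call at a threshold of 0.01 and with a replicate block. The causes of the changes below were not tested.

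Replicate numbers 1 to 6 occur in both groups, but 4 to 6 cross batches. Deviations of same-numbered libraries from their treatment-group means correlated with r = 0.47, 0.31, 0.38, 0.01, -0.13 and -0.06. Batch was not removed from these deviations, and numbers 1 to 3 are in batch 1 in both groups. The correlations therefore cannot decide whether the libraries are pairs. The main fits did not take the numbers as pairs, and the block fit is given as an alternative. With a replicate block over the 12 numbered libraries, 624 genes passed in place of 1018, and Star had -1.06 (edgeR adjusted p = 0.0987), Cyp11a1 -0.62, Fdx1 -0.14 and Tspo 0.12.

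The count of 1018 genes was 478 at a threshold of 0.01 and 619 without the batch term, where 9 in place of 15 pathway genes passed; without a library it ran from 708 to 1314, and the pathway count from 12 to 15. Within batch 1, the count of 1 gene of the 8 was 2 with total-count scaling, 3 in DESeq2, 2 in limma-voom and 3 with no filter, and 1 to 2 without a library. Between Control batches, the count of 2 was 1 at a threshold of 0.01, 1 in limma-voom, 0 with sets summed and 1 to 2 without a library.

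Signs of genes that did not pass turned as follows. Cyp11a1 had -0.33 in limma-voom, and ran from -0.34 to 0.30 without a library (-0.0034 without Control 6, -0.02 without Control 11, -0.34 without Tyrphostin 2). Tspo had 0.074 with total-count scaling, 0.036 with sets summed and 0.034 with Control 6, Control 7 and Tyrphostin 5 left out (chosen after seeing the data), and -0.19 to 0.12 without a library. Por had 0.11 with total-count scaling and 0.0053 with no filter, and -0.17 to 0.087 without a library. At these depths 3 counts correspond to 0.336 to 1.64 CPM. Some genes of the report that passed between Tyrphostin and Control had few counts. The lowest totals over all libraries were those of Akr1c18 (0 to 241 counts in a library), Akap1 (2 to 87), Foxo1 (7 to 124), Fshr (14 to 149) and Fdxr (25 to 580). Runx2 (25 to 334) and Gata4 (13 to 1062) came next.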
